A study of Homo sapiens with 6 samples.

Results

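The plasminogen activator genes and the serpin genes grouped with them were described in messenger RNA from RKO, an established human colon carcinoma cell line. The 6 genes were PLAU, PLAT, PLAUR, SERPINE2, SERPINB2 and SERPINB8, chosen by symbol for their place in the system, and all 6 were among the 28278 gene symbols of each count table. The libraries were 3 of cells labelled GSK3B knockout and 3 of cells labelled GSK3B wild type. Both groups share the RKO background, and no treatment, dose or time is given. The method of knockout, its clonal or pooled origin and the origin of the replicates are not stated in the labels, so the p-values cover the spread between these libraries, which may be technical. The study was made to find transcripts that depend on the level of GSK3B, a serine/threonine kinase.

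Urokinase, the product of PLAU, is secreted as an inactive proenzyme and binds a lipid-anchored receptor at the cell surface, the product of PLAUR. Urokinase and the tissue-type activator encoded by PLAT cleave plasminogen into plasmin, a broad protease that digests fibrin and matrix proteins and activates other proteases. Serpins are inhibitors that trap a protease by a one-way change of shape. SERPINB2 encodes plasminogen activator inhibitor type 2, SERPINE2 encodes protease nexin-1, and SERPINB8 encodes a serpin of the intracellular clade that inhibits furin. In colon carcinoma the system is known for its part in invasion, and the receptor is often found at the invasive edge.

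Promoter windows are shown for the receptor gene and SERPINB8, which share the AP-1 letters within them, and for PLAU, whose windows lack them. They are from RefSeq on GRCh38.p14, run from 250 bases before to 50 bases after an annotated start site, and are written 5′ to 3′ on the strand of the gene. Capitals mark TGAGTCA, the letters bound by AP-1 factors.
PLAU, chr10:73910882-73911181, plus strand: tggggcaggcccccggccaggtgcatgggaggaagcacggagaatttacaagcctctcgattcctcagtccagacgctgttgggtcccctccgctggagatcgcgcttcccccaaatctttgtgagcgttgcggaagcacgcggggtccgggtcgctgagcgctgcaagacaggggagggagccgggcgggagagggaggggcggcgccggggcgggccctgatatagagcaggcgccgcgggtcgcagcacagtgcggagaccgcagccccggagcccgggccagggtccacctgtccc
PLAUR, chr19:43670120-43670419, minus strand: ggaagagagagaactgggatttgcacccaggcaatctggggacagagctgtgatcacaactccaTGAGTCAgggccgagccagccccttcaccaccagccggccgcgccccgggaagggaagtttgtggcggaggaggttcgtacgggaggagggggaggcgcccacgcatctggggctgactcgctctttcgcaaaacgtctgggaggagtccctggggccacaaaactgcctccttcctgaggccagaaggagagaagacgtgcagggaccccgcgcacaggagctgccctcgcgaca
SERPINB8, chr18:63969831-63970130, plus strand: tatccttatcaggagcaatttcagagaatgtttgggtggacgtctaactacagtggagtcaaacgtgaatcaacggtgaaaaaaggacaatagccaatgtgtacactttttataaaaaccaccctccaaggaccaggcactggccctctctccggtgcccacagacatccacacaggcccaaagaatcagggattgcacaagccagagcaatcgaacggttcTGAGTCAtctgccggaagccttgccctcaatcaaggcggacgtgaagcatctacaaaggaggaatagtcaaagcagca

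The 5 genes searched had 7 windows in all, because PLAU and SERPINE2 have a pair of annotated start sites each. PLAT was left out of the search, so nothing is given on its promoter. The letters TGAGTCA, searched on both strands, stood at position -186 from the start site of PLAUR and at -28 from that of SERPINB8. They were in neither window of PLAU or SERPINE2 and not in that of SERPINB2, and 4.95% of the 35116 windows of the table held them. The letters CTTTGAT, bound by TCF/LEF factors, were in none of the 7 windows and in 2.62% of all windows. An NF-kappaB pattern was in none of the 7 and in 1.61% of all. TATAAA, the TATA box letters, began 30 bases before the start site of SERPINB2, also occurred in the SERPINB8 window, and were in 11.5% of all windows. ACGTG, the core bound by hypoxia-inducible factors, was in the PLAUR, SERPINB8 and 1 SERPINE2 window and in 21.4% of all. These matches describe letters and not bound sites, and bases outside the windows, for PLAU as for the others, were not searched. The motifs were chosen with results of these data known, and matches that overlap each other were counted once per window.

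Total counts ran from 32379369 to 33558362 in the knockout libraries and from 32565829 to 33052404 in the wild-type libraries. GSK3B itself had 46.0, 47.5 and 47.1 CPM (counts scaled to the library total, adjusted by TMM) in knockout replicates 1 to 3, against 99.0, 97.6 and 91.4 CPM in wild-type replicates 1 to 3 (log2 fold change -1.04 ± 0.05 SE; edgeR quasi-likelihood test, adjusted p = 1.88e-12). Of 14409 genes tested, 13.5% passed an adjusted p under 0.05, with 6.36% higher and 7.18% lower in the knockout. DESeq2 passed 12.9% (6.23% higher, 6.66% lower), limma-voom 13.2% (6.33% higher, 6.87% lower) and edgeR with a correction for GC content 21.0% (13.7% higher, 7.33% lower). The share of passing genes that were higher was 47.0%, against 34.6% with scaling by library size alone and 65.2% with a correction for GC content. The median log2 fold change of all tested genes was 0.00. Of 7 epithelial markers, summed at 139 to 144 CPM in knockout and 136 to 143 CPM in wild-type libraries, CDH1 was listed at 0 in all 6 libraries, KRT19 had at most 5 counts, and EPCAM was low and fell, at 1.07 ± 0.04 CPM in knockout and 3.43 ± 0.95 CPM in wild type (SD, n = 3 each; log2 fold change -1.68 ± 0.23 SE; edgeR, adjusted p = 2.59e-05). KRT18, KRT8, CDX2 and VIL1 had means of 74.9, 28.8, 18.6 and 17.6 CPM in knockout. In wild type they had 69.9, 30.1, 18.6 and 17.15 CPM, and none of them passed the test (edgeR). The part of EPCAM in the results was not tested. Markers of other cell types were few. The 5 fibroblast markers summed to 0.56 to 0.82 CPM in knockout and 1.61 to 4.05 CPM in wild-type libraries, and 4 of them (COL1A2, COL3A1, DCN and LUM) had together 68 counts in wild-type replicate 3 but at most 3 in any other library. The 4 endothelial markers summed to 0.15 to 0.25 CPM in knockout and 0.06 to 0.24 CPM in wild type, with CDH5 at 0. PTPRC and CD3E were at 0 among 5 leukocyte markers, which had no count in knockout and at most 14 in a wild-type library.

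In the knockout, PLAU and SERPINB8 were higher and PLAT was lower, while the receptor gene PLAUR did not pass the test. SERPINE2 was tested at very low counts and did not pass, and SERPINB2 was too low to be tested. Of the 6 genes 5 passed the filter on low counts, and of these 2 rose, 1 fell and 2 did not pass. The changes were small beside most of the levels, 1.15-fold for PLAU and 1.21-fold for SERPINB8, with PLAT at 0.74 of its wild-type level. The groups did not overlap in 3 of the 6 genes, as in 31.3% of all tested genes, 15.4% with the knockout above and 15.9% with it below. The genes had been chosen with earlier results of these data known, so their share of calls against the 13.5% of all tested genes supports nothing further.

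**Figure D1:**
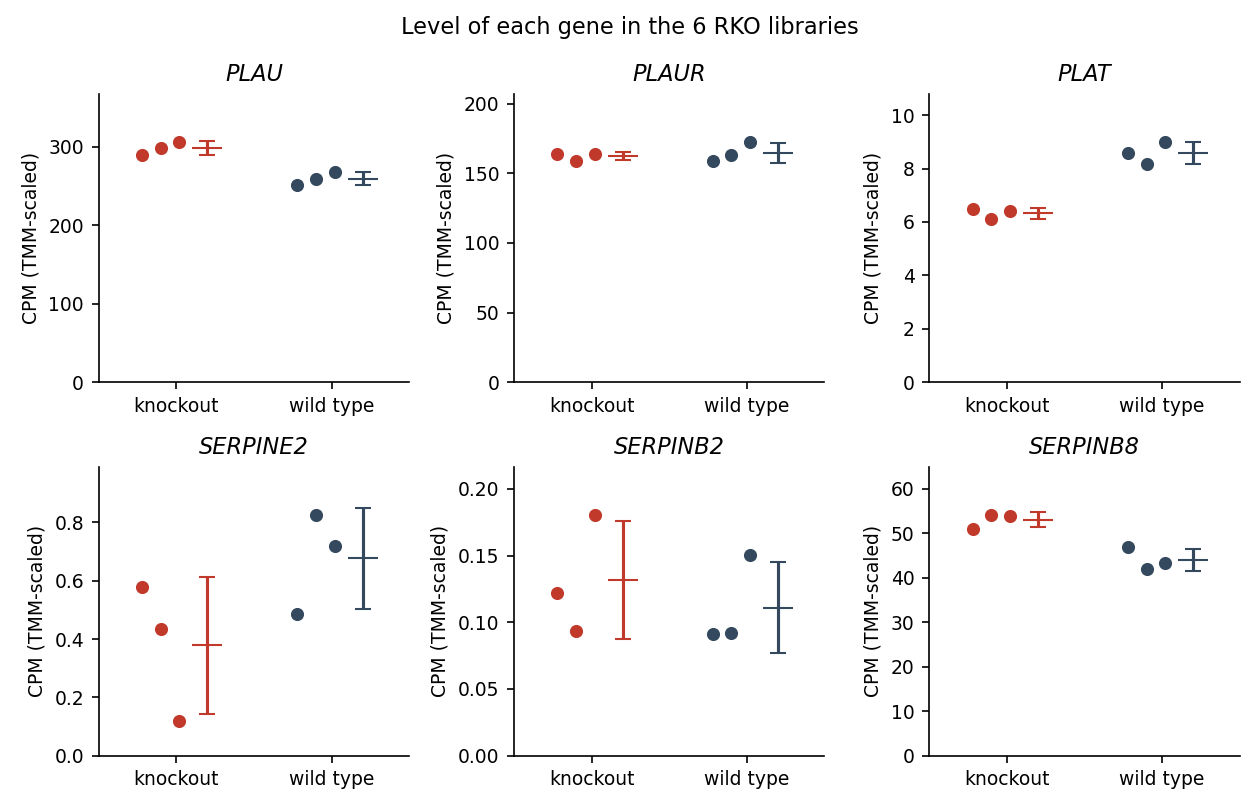
CPM, scaled by TMM, of each of the 6 genes in the 3 knockout (left, red) and 3 wild-type (right, blue) libraries; points are libraries, and the bar beside them is the mean with its SD, on axes that start at 0 and differ between panels. PLAU and SERPINB8 lay higher and PLAT lower in all 3 knockout libraries than in any wild-type library, and the groups overlapped for PLAUR, SERPINE2 and SERPINB2.

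PLAU lies on chromosome 10 at 73909177 to 73917497 on the plus strand in hg38. It had 289, 299 and 306 CPM in knockout replicates 1 to 3, against 251, 259 and 268 CPM in wild-type replicates 1 to 3. Every knockout library lay above every wild-type library, by a gap larger than the SD of either group. PLAU averaged 298 ± 8.44 CPM in knockout and 259 ± 8.24 CPM in wild type (SD, n = 3 each), a log2 fold change of 0.20 ± 0.04 SE with a 95% interval of 0.13 to 0.28 (edgeR, adjusted p = 6.56e-04). Of all genes that passed the test, 33.9% had a smaller change than PLAU. Its merged exons, 2950 bases long, share 916 bases with those of C10orf55, a gene on the opposite strand with 2514. The strand setting of the counts is not given in the sources used here. Reads within the shared bases therefore cannot be assigned to either gene. C10orf55 had a log2 fold change of 0.21 ± 0.05 SE (edgeR, adjusted p = 0.00431), and the count of PLAU per count of C10orf55 was 3.99 ± 0.11 in knockout and 4.03 ± 0.029 in wild type (SD, n = 3 each).

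PLAT, the tissue-type activator, lies on chromosome 8 at 42175233 to 42207724 on the minus strand. It had 6.49, 6.09 and 6.4 CPM in knockout replicates 1 to 3, against 8.57, 8.16 and 9.01 CPM in wild-type replicates 1 to 3. All 3 knockout libraries lay below all 3 wild-type libraries. The mean was 6.33 ± 0.21 CPM in knockout and 8.58 ± 0.42 CPM in wild type (SD, n = 3 each), a log2 fold change of -0.44 ± 0.11 SE with a 95% interval of -0.66 to -0.21 (edgeR, adjusted p = 0.00890). PLAT rested on 622 counts in the knockout libraries together and 849 in the wild-type libraries. Its replicate spread was 3.27% of the mean in knockout and 4.95% in wild type, below the 6.94% and 5.94% that counting alone would give. Without knockout replicate 2 its adjusted p was 0.0496 (edgeR).

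The activator genes thus moved in opposite directions. PLAU had 44.6, 49.0 and 47.9 counts per count of PLAT in knockout replicates 1 to 3, against 29.3, 31.7 and 29.7 in wild-type replicates 1 to 3. This ratio does not depend on how libraries are scaled. That its groups did not overlap follows from the separation of PLAU and of PLAT given above, and adds no support to it. It compares counts and not molecules, since the genes differ in length.

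PLAUR, the receptor gene, lies on chromosome 19 at 43646095 to 43670547 on the minus strand. It had 164, 159 and 164 CPM in knockout replicates 1 to 3, against 159, 163 and 173 CPM in wild-type replicates 1 to 3. The groups overlapped, and wild-type replicate 3 was the highest of the 6 libraries. The log2 fold change was -0.02 ± 0.04 SE, with a 95% interval of -0.11 to 0.06 (edgeR, adjusted p = 0.770), which leaves room for changes of about that size in either direction. It was 0.01 without wild-type replicate 3, the library with the highest summed fibroblast markers, and 0.04 with the correction for GC content, and it did not pass in either (edgeR, adjusted p = 0.856 and 0.364). PLAU had 1.77, 1.88 and 1.87 counts per count of PLAUR in knockout replicates 1 to 3, against 1.58, 1.59 and 1.55 in wild-type replicates 1 to 3.

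SERPINB8 lies on chromosome 18 at 63969925 to 64019779 on the plus strand. It had 51.1, 54.1 and 53.9 CPM in knockout replicates 1 to 3, against 46.8, 41.9 and 43.2 CPM in wild-type replicates 1 to 3. Every knockout library lay above every wild-type library. The mean was 53.0 ± 1.68 CPM in knockout and 44.0 ± 2.53 CPM in wild type (SD, n = 3 each), a log2 fold change of 0.27 ± 0.06 SE with a 95% interval of 0.15 to 0.39 (edgeR, adjusted p = 0.00265). SERPINB8 shares 370 exon bases with HMSD, the neighbouring gene on the same strand. HMSD had 11.5 ± 0.28 CPM in knockout and 11.2 ± 0.44 CPM in wild type (SD, n = 3 each) and did not pass (log2 fold change 0.03 ± 0.09 SE; edgeR, adjusted p = 0.863). SERPINB8 had 4.63 ± 0.20 counts per count of HMSD in knockout and 3.93 ± 0.15 in wild type (SD, n = 3 each).

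SERPINE2, the protease nexin-1 gene on chromosome 2 at 223975112 to 224039319 on the minus strand, had 19, 14 and 4 counts in knockout replicates 1 to 3, against 16, 27 and 24 counts in wild-type replicates 1 to 3. The groups overlapped, with knockout replicate 1 above wild-type replicate 1. The log2 fold change was -0.84 ± 0.44 SE with a 95% interval of -1.75 to 0.07 (edgeR, adjusted p = 0.218). It was -0.41 without knockout replicate 3 and -1.28 without knockout replicate 1, and did not pass in either (edgeR, adjusted p = 0.619 and 0.15). Its spread in knockout was 62.0% of the mean where counting alone would give 28.5%. The interval held both no change and a fall of 2-fold.

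SERPINB2, the gene of plasminogen activator inhibitor type 2 on chromosome 18 at 63871692 to 63903890 on the plus strand, had 4, 3 and 6 counts in knockout replicates 1 to 3, against 3, 3 and 5 counts in wild-type replicates 1 to 3. It stayed under the filter on low counts. With no filter its log2 fold change was 0.24 with a 95% interval of -1.59 to 2.06 (edgeR, adjusted p = 0.911), so no difference was detectable at this depth. SERPINB2 and SERPINB8 belong to the same serpin cluster, with 66034 bases between them, and SERPINB10, listed at 0 in all 6 libraries, lies partly between them and shares 547 exon bases with SERPINB2.

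**Figure D2:**
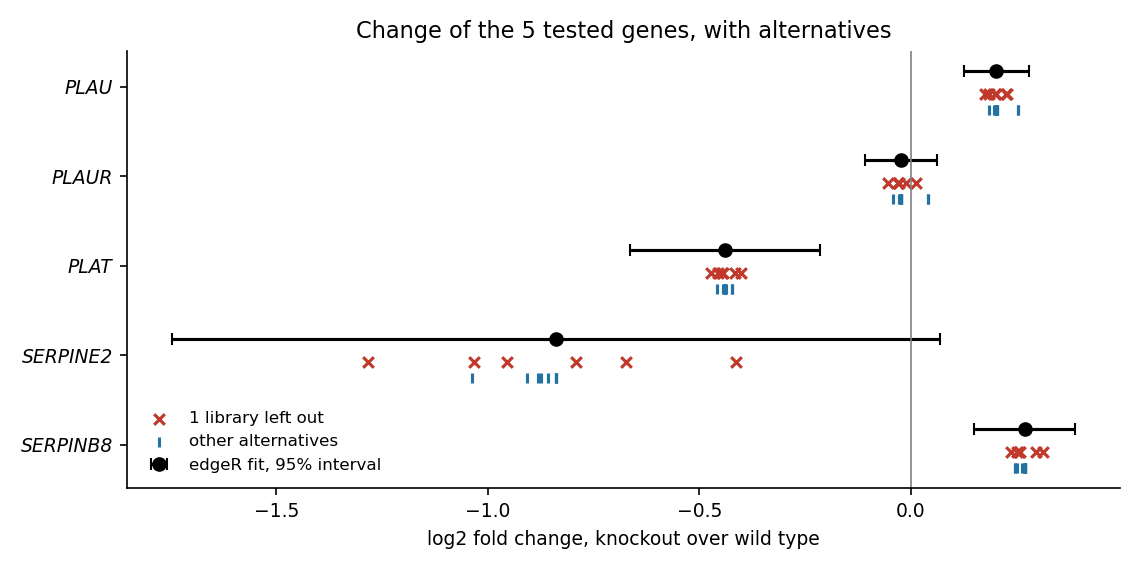
Log2 fold change, knockout over wild type, of the 5 tested genes: black points are the edgeR fit with its 95% interval, red crosses the fits without 1 library and blue ticks the other alternatives. PLAU, SERPINB8 and PLAT kept their side of 0 in every fit shown, PLAUR fell on both sides, and SERPINE2 ranged from -1.28 to -0.41.

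PLAU, SERPINB8 and PLAT passed at an adjusted p under 0.05 in all 16 alternatives, each in its own direction. Their log2 fold changes ran from 0.18 to 0.25 for PLAU, from 0.24 to 0.31 for SERPINB8 and from -0.47 to -0.40 for PLAT. Without wild-type replicate 3 PLAU stood at 0.23, SERPINB8 at 0.26 and PLAT at -0.40. That library held 68 of the counts of COL1A2, COL3A1, DCN and LUM, and the other libraries at most 3 each. PDGFRB, the only fibroblast marker high enough to be tested, fell (log2 fold change -1.43 ± 0.27 SE; edgeR, adjusted p = 9.20e-04), and its part in the results was not tested. In bulk RNA, fewer cells of a type and less RNA per cell cannot be told apart.

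Levels were compared between genes as CPM per kilobase of merged exon length. PLAU was highest of the 6, at 101 ± 2.86 CPM per kilobase in knockout and 87.8 ± 2.79 in wild type (SD, n = 3 each). PLAUR followed with 36.4 ± 0.62 in knockout and 37.0 ± 1.62 in wild type, then SERPINB8 with 9.03 ± 0.29 in knockout and 7.50 ± 0.43 in wild type. PLAT had 0.96 ± 0.03 in knockout and 1.30 ± 0.06 in wild type. The lowest were SERPINE2 and SERPINB2. SERPINE2 had 0.04 ± 0.03 in knockout and 0.08 ± 0.02 in wild type. SERPINB2 had 0.05 ± 0.02 in knockout and 0.04 ± 0.01 in wild type. They did not differ beyond their spread in the knockout, while in wild type SERPINE2 was the higher by more than either SD. By level PLAU was above 96.4% of tested genes in CPM and PLAUR above 92.0%, while PLAT was above 26%. SERPINE2 was above 4.55% of them.

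**Figure D3:**
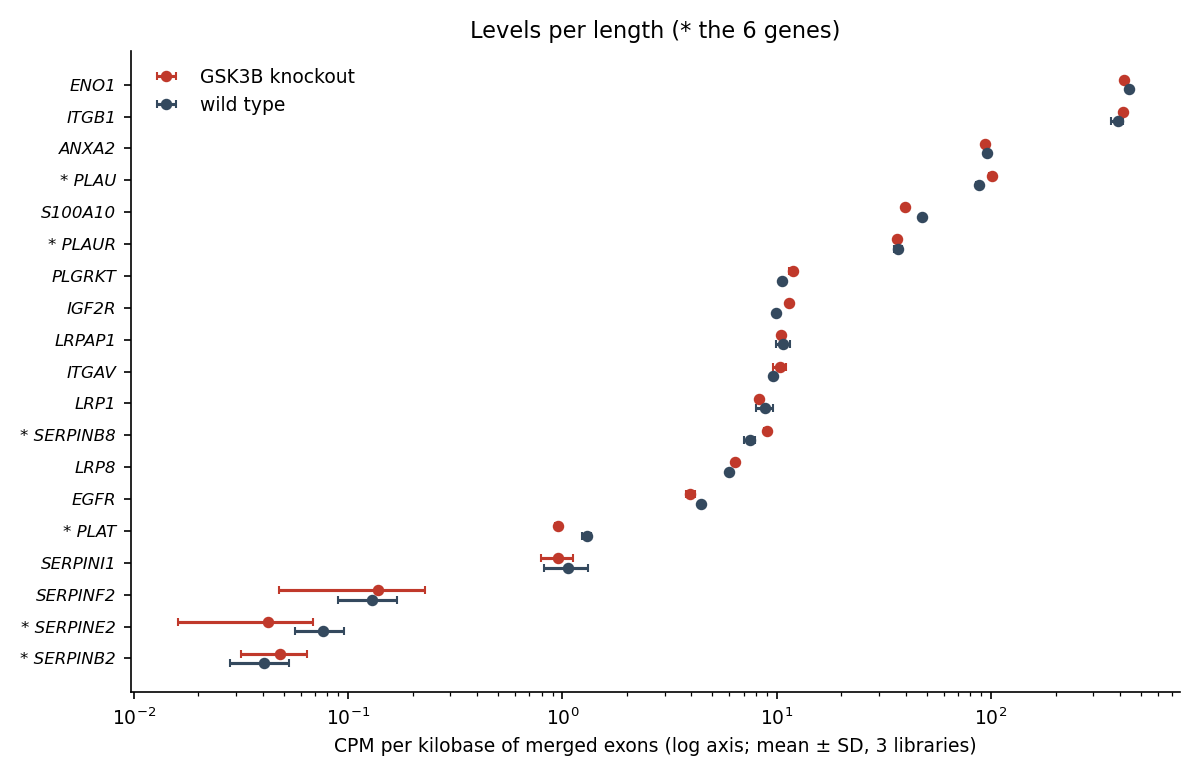
CPM per kilobase of merged exons on a log axis, as mean and SD of 3 libraries, in knockout (red, upper) and wild type (blue, lower), for the 6 genes (starred) and tested genes of their receptors, partners and other inhibitors. PLAU and PLAUR are the highest of the starred genes, with SERPINE2 and SERPINB2 at the foot.

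Among other inhibitors of plasminogen activation or plasmin, 3 of 6 genes were tested, 0 rose, 0 fell and 3 did not pass in edgeR, with 1 at an unadjusted p under 0.05. DESeq2 and limma-voom also had 0 of them past an adjusted p under 0.05. Beside the counts of this and each later list stands the 13.5% of all tested genes that passed in edgeR. SERPINI1, the neuroserpin gene, had 2.31 ± 0.39 CPM in knockout and 2.58 ± 0.60 CPM in wild type. SERPINA5, which encodes protein C inhibitor, was listed at 0.

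Plasminogen itself, PLG, had 0 counts in every knockout library and 2 counts in 1 wild-type library. Of 5 genes of plasminogen and its surface receptors 4 were tested, 1 fell, 0 rose and 3 did not pass, with a median log2 fold change of -0.05. The gene that fell was S100A10, which encodes the p11 partner of annexin A2 that binds plasminogen. It had 60.9 ± 1.12 CPM in knockout and 73.2 ± 0.76 CPM in wild type (SD, n = 3 each), a log2 fold change of -0.27 ± 0.05 SE (edgeR, adjusted p = 5.87e-04). Its partner gene ANXA2 had 830 ± 7.44 CPM in knockout and 844 ± 24.5 CPM in wild type and did not pass.

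Of 12 genes of urokinase receptor partners and clearance receptors 7 were tested, 1 rose, 1 fell and 5 did not pass, with a median log2 fold change of 0.09. IGF2R, the mannose 6-phosphate receptor gene, whose product binds the urokinase receptor, rose to 204 ± 1.56 CPM in knockout, against 177 ± 1.40 CPM in wild type (SD, n = 3 each; log2 fold change 0.20 ± 0.04 SE; edgeR, adjusted p = 7.64e-04). EGFR fell, at -0.17 ± 0.05 SE (edgeR, adjusted p = 0.0429). The call was lost on leaving out wild-type replicate 2 or knockout replicate 1, 2 or 3 (edgeR, adjusted p = 0.124, 0.240, 0.0671 and 0.0950). LRP2 was listed at 0, and the endocytic receptor LRP1, which clears complexes of urokinase with its inhibitor, did not pass at -0.10 ± 0.05 SE.

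Of 10 genes of proteases that activate the urokinase proenzyme or are targets of the serpins 5 were tested, and 0 rose, 0 fell and 5 did not pass in edgeR, with 0 at an unadjusted p under 0.05. DESeq2 and limma-voom also had 0 of them. The median log2 fold change was -0.02. FURIN, the target of the SERPINB8 product, had 164 ± 4.55 CPM in knockout and 172 ± 7.85 CPM in wild type (SD, n = 3 each). CTSL, the cathepsin L gene, had 246 ± 5.01 CPM in knockout and 240 ± 5.60 CPM in wild type, and passed at 0.08 with the correction for GC content (edgeR, adjusted p = 0.0372). HPN, the hepsin gene, was listed at 0.

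Of 10 genes of substrates of plasmin or urokinase 8 were tested, 3 rose, 2 fell and 3 did not pass. The median log2 fold change of the tested genes was -0.12. Of all tested genes 6.36% rose and 7.18% fell. The list was chosen with earlier results of these data known, so its counts support nothing further. The proteases MMP3 and MMP1 rose to 16.0 ± 0.53 and 14 ± 1.24 CPM in knockout, against 5.50 ± 0.55 and 8.27 ± 0.35 CPM in wild type (SD, n = 3 each). VEGFA, a growth factor gene, fell at -0.42 ± 0.06 SE (edgeR, adjusted p = 1.66e-05). HGF, whose precursor urokinase can cleave, fell at -0.35 ± 0.04 SE (edgeR, adjusted p = 8.55e-07).

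All 17 genes of transcription factors known to act on the promoters of urokinase or its receptor were tested. Of these 1 rose, 4 fell and 12 did not pass, with a median log2 fold change of -0.08. This list too was chosen with earlier results known, and of all tested genes 6.36% rose and 7.18% fell. Among AP-1 genes FOS rose, with 14.4 ± 1.00 CPM in knockout and 10.8 ± 0.26 CPM in wild type (SD, n = 3 each), and FOSL2 fell, with 21.5 ± 0.61 CPM in knockout and 29.5 ± 1.26 CPM in wild type. FOSL1, named outside the rule after its values were seen, also fell, at -0.14 ± 0.04 SE (edgeR, adjusted p = 0.0169), but not without knockout replicate 1 or 3 or with the correction for GC content (edgeR, adjusted p = 0.127, 0.0713 and 0.267). JUN, the most abundant of the 17 in CPM, had 785 ± 8.73 CPM in knockout and 785 ± 36.1 CPM in wild type. ETS1 fell, with 290 ± 0.66 CPM in knockout and 357 ± 10.9 CPM in wild type, and SMAD3 fell, with 4.09 ± 0.50 CPM in knockout and 14.1 ± 0.74 CPM in wild type (SD, n = 3 each; edgeR, adjusted p = 2.62e-06 and 2.09e-10). The promoters printed above with the AP-1 letters thus belonged to 1 gene that rose, SERPINB8, and 1 that did not pass, PLAUR. The promoter of PLAT, which fell, was not searched.

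**Figure D4:**
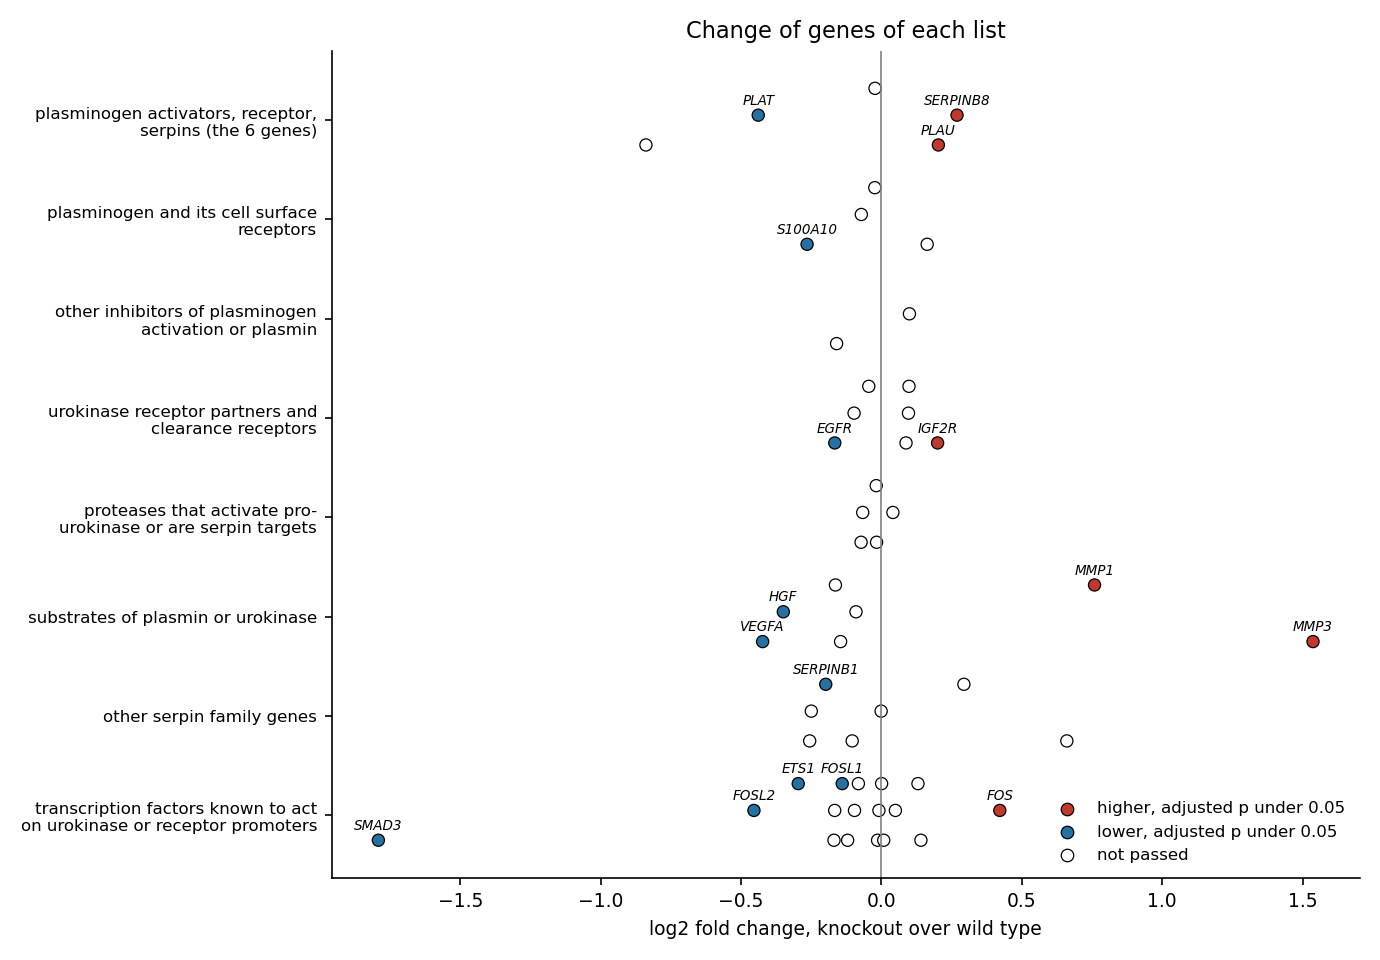
Log2 fold change, knockout over wild type, of tested genes of each list, with genes at an adjusted p under 0.05 filled red (higher) or blue (lower) and named, and others open; points are spread vertically for legibility. PLAU and SERPINB8 stand to the right of 0 and PLAT to the left, and SMAD3 at -1.79 and MMP3 at 1.54 are the largest changes drawn.

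The genes whose pattern over the 6 libraries was most like that of each changed gene were found by the mean absolute difference between centred log2 CPM profiles, among 10165 genes averaging 5 CPM or more. For PLAU these were SAFB2, HSPA1B and NDUFB9, at 0.012, 0.016 and 0.017, where the median gene differed by 0.111. HSPA1B has a near-identical copy, so its counts are uncertain, and SAFB2 no longer passed the test without knockout replicate 2 or 3 (edgeR, adjusted p = 0.0696 and 0.0684). For PLAT they were TPM2, SNX33 and GAS6, at 0.016, 0.025 and 0.028, against a median of 0.223. For SERPINB8 they were EIF5A2, NOL8 and SEC11C, at 0.025, 0.026 and 0.029, against a median of 0.138. SEC11C was near the threshold (edgeR, adjusted p = 0.0442) and the call was lost on leaving out any library other than wild-type replicate 1, in DESeq2, with the correction for GC content, with library size alone and with no filter beyond 1 count (adjusted p = 0.0514, 0.0651, 0.0678 and 0.0513). Such likeness mostly repeats the difference between the groups and describes these libraries alone.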

How the data were processed

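Each library has a deposited table of raw counts, whole numbers listed by gene symbol. Per the labels' protocols, TRIzol-extracted polyadenylated RNA gave 150 bp paired-end reads. The submitters' processing notes name hg38, TopHat, limma and edgeR. The program that counted reads, its annotation and its strand setting are not given here.

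The test was edgeR 4.0.16 (R 4.3.3): filterByExpr with a minimum count of 10 and minimum total of 15, TMM scaling, and a robust quasi-likelihood fit of group alone over 14409 genes, with Benjamini-Hochberg adjustment over all of them and a threshold of 0.05. Each SE was derived from the F statistic. Symbols were matched to GENCODE 29 by name (25558) or older symbol (658) for coordinates, merged exon lengths and, for 95.9% of tested genes, GC content. The fit was tested on simulated counts.

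The 6 genes and the 7 gene lists were chosen with earlier results of these data known. The rule for named genes took GSK3B, the 6 genes, up to 4 changed genes of each list with the largest change (or, with none, the 2 with the highest mean), list genes at 0, the 3 genes most like each changed gene, and the nearest tested neighbours. Some genes of the lists are counted but not reported here by name. The alternatives were other scalings and filters, a replicate block, each library left out in turn, DESeq2 1.42.0, limma-voom (limma 3.58.1), no robust option, and a GC offset (a natural spline per library, 5 degrees of freedom), alone and with the block. Libraries within a group differed by a chi-square of 3.11 to 9.30 per degree of freedom, so each counted as 1 replicate.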

Additional observations from a re-analysis of the deposited data

How the results depend on the processing

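The calls of PLAU, SERPINB8 and PLAT, and the lack of one for PLAUR, held in all 16 alternatives. SERPINE2 did not pass in the 14 alternatives that gave it an adjusted p. It fell under a filter of 1 CPM in 3 libraries, and DESeq2 gave it none. PLAUR changed sign, without passing, at 0.013 without wild-type replicate 3 (-0.054 to 0.013 over the fits without 1 library), and at 0.041 both with the GC offset and with that offset and the replicate block. The count of all genes passing, 1951, was 3031 with the GC offset and 3060 with that offset and the replicate block, and ran from 950 to 2531 over the fits without 1 library, for causes that were not tested. It was 1072 without wild-type replicate 2 and 1094, 950 and 1205 without knockout replicates 1, 2 and 3. Among other named genes, changes of sign in values that did not pass were SERPINI1 at 0.037 without wild-type replicate 1 (-0.287 to 0.037 over the fits without 1 library), FURIN at 0.038 with the GC offset and 0.037 with the offset and block, MRPL44 at -9.62e-05 without knockout replicate 2 (up to 0.068 over such fits), and CUL3 at -0.035 without wild-type replicate 3 (-0.035 to 0.111 over such fits), -0.035 with the GC offset and -0.034 with the offset and block. Same-numbered libraries deviated together with correlations of 0.0709, -0.00406 and 0.0306, and differently numbered libraries with -0.0878 to 0.0599. Whether the replicate number pairs the libraries cannot be told from these values. With the replicate block 2193 genes passed, PLAU stood at 0.203, PLAT at -0.439 and SERPINB8 at 0.270, and no call of the 6 genes changed. SERPINE2 and SERPINB2 rested on few counts, 37 and 13 in the knockout libraries together and 67 and 11 in the wild-type libraries.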

Other observations

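Of 23 other serpin genes 7 were tested, 1 fell, 0 rose and 6 did not pass, with a median log2 fold change of -0.10. Of all tested genes 13.5% passed in edgeR. SERPINB1, an inhibitor of neutrophil proteases, had 42.6 ± 2.53 CPM in knockout and 48.9 ± 1.53 CPM in wild type (SD, n = 3 each; log2 fold change -0.20 ± 0.06 SE; edgeR, adjusted p = 0.0255). The call was lost on leaving out wild-type replicate 2 or knockout replicate 1 or 2 (edgeR, adjusted p = 0.0732, 0.171 and 0.0877). The collagen chaperone gene SERPINH1, named here after its values were seen, had 269 ± 5.49 CPM in knockout and 270 ± 10.7 CPM in wild type. SERPINA3, SERPINA4, SERPINA6, SERPINB3, SERPINB10, SERPINB11, SERPINB12 and SERPINB13 were listed at 0 in all 6 libraries.

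The nearest tested genes on each side of the 6 are given here, leaving out genes that overlap them. C10orf55, which overlaps PLAU and rose with it, and HMSD, which overlaps SERPINB8, are described with those genes. CAMK2G and VCL, on either side of PLAU, had log2 fold changes of -0.09 ± 0.06 and -0.09 ± 0.04 SE and did not pass (edgeR, adjusted p = 0.352 and 0.158). Beside PLAUR, the adhesion gene CADM4 fell at -0.32 ± 0.07 SE (edgeR, adjusted p = 0.00326), while SMG9 did not pass at 0.03 ± 0.05 SE. Beside PLAT, AP3M2, 3559 bases away, fell at -0.19 ± 0.06 SE (edgeR, adjusted p = 0.0490), but the call was lost on leaving out wild-type replicate 2 or any 1 knockout library, without the robust option (adjusted p = 0.0506), and in DESeq2 and limma-voom (adjusted p = 0.0526 and 0.0534), and over the fits without 1 of those libraries its adjusted p ran from 0.0852 to 0.250. IKBKB, on its other side, did not pass at -0.06 ± 0.06 SE. MRPL44 and CUL3 beside SERPINE2 did not pass, at 0.04 ± 0.06 and 0.04 ± 0.06 SE. VPS4B, on the lower-coordinate side of the serpin pair on chromosome 18, did not pass at 0.15 ± 0.07 SE. TMX3, 4653908 bases beyond SERPINB8, rose at 0.20 ± 0.05 SE (edgeR, adjusted p = 0.00879), but did not pass without knockout replicate 1 or 2 or with the GC offset (edgeR, adjusted p = 0.0728, 0.0604 and 0.0560).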
